A study of Mus musculus with 6 samples.

Results

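Prostaglandins are lipid signals made from arachidonic acid, a fatty acid held in membrane phospholipids. The 8 genes described here encode successive steps of that pathway: a phospholipase that frees arachidonic acid (Pla2g4a), the cyclooxygenases that convert it to the shared precursor prostaglandin H2 (Ptgs1 and Ptgs2), the synthases that turn this precursor into prostaglandin E2 (Ptges, Ptges2 and Ptges3) or prostacyclin (Ptgis), and a reductase that helps to inactivate prostaglandins (Ptgr1). Ptgs1 is generally regarded as a steadily expressed enzyme and Ptgs2 as an inducible counterpart that responds to growth factors and inflammatory signals, and tumour prostaglandin E2 is known for damping immune responses. The genes were taken by symbol from GENCODE M21, and each of the 8 matched 1 of the 53465 genes of the count table. They were chosen by symbol with their KO and WT footprint levels already known.

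Ribosome profiling counts the short mRNA fragments that translating ribosomes shield from nuclease, so a level reflects both the amount of an mRNA and its occupancy by ribosomes. The 6 libraries came from ID8 cells, an ovarian cancer line of the mouse that was grown out of surface epithelium: 3 labelled KO, from cells given a guide RNA against Nat10 (sgNat10), and 3 labelled WT, from cells given a control guide (sgNC). NAT10 is an enzyme that acetylates cytidines in RNA. All 6 received cycloheximide (100 µg/mL for 2 minutes) to hold ribosomes in place, and the sources used here do not say whether the edited cells were a clone or a pool, or whether replicates were separate cultures, so the errors given here may be technical, being the spread of these libraries alone. The effect on translation alone cannot be told apart from an effect on mRNA, because matched RNA-seq was not used here, and in such bulk samples fewer expressing cells and less RNA per cell cannot be told apart.

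Total counts ran from 2234305 to 3126208 in KO libraries and from 1687466 to 2148715 in WT libraries. The targeted gene, Nat10, had 123, 56.9 and 138 CPM (the standard depth-scaled count, with library sizes adjusted by trimmed means, TMM) in the libraries labelled KO, against 102, 64.0 and 169 CPM in those labelled WT. The groups overlapped, so KO below names the label and not a measured loss of Nat10. Of 8 markers of ovarian surface epithelium and mesothelium, 6 averaged at least 20 CPM (Krt8, Krt18, Krt19, Msln, Wt1 and Upk3b), Epcam had no count and Krt7 had counts in WT replicate 1 alone. The 8 summed to between 4180 and 4827 CPM in KO libraries and between 5854 and 6330 CPM in WT libraries. The markers differed in direction. Lower means in KO were seen for Krt8 (36.6 CPM in KO and 198 CPM in WT), Krt18 (154 and 515 CPM) and Krt19 (2223 and 4202 CPM). Msln was higher, with 1636 CPM in KO and 789 CPM in WT. None of these overlapped between the groups, while Wt1 and Upk3b did. The part of these differences in the results on the enzymes was not tested. The 3 markers of platelets and megakaryocytes, cells known for high Ptgs1, had no count in any library, and the 4 endothelial markers, of a cell type known for high Ptgis, summed to 0 to 1.86 CPM in KO libraries and 0 CPM in WT libraries. The 6 leukocyte markers summed to at most 1.24 CPM in KO libraries and 14.5 CPM in WT libraries, and the 4 fibroblast markers to between 5.85 and 31.3 CPM in KO libraries and between 42.8 and 85.4 CPM in WT libraries, nearly all of it Col1a1 in WT.

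The start-site regions of 3 enzymes are given first, because the footprints of Ptgs2 lay higher and those of Ptgr1 lower in the KO libraries, while Ptgs1 carries out the same reaction as Ptgs2 and differed less. The 250-base windows come from RefSeq on GRCm38.p6 and run from 220 bases before the annotated start to 30 after it, 5′ to 3′ on the strand of the gene. They lie at chr1:150099811-150100060 (plus strand, Ptgs2), chr2:36230206-36230455 (plus strand, Ptgs1) and chr4:58987049-58987298 (minus strand, Ptgr1). Capitals mark matches, on either strand, to 7 motifs: TGACG (half-site of the cAMP response element), CACGTG (E-box), TGANTCA (AP-1), TGACNNNGC (core of the antioxidant response element), TATAA (TATA box), GGGCGG (GC box) and CCAAT.
Ptgs2: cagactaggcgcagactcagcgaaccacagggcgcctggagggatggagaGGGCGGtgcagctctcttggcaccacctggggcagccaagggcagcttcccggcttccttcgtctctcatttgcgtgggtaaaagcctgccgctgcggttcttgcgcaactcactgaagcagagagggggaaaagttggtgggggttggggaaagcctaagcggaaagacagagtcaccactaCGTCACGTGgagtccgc
Ptgs1: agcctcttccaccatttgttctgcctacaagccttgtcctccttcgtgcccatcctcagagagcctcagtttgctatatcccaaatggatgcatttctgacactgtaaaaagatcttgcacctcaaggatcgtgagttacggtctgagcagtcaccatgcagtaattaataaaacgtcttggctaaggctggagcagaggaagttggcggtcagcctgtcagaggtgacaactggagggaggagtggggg
Ptgr1: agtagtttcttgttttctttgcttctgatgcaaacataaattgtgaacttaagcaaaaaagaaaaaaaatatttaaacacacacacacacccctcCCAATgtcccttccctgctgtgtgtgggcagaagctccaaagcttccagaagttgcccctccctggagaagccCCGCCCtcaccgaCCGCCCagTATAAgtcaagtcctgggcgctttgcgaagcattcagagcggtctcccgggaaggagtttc

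In the Ptgs2 window a half-site of the cAMP response element lay on the minus strand, printed here as CGTCA, at bases 14 to 18 after the start. It overlapped an E-box at bases 17 to 22, and a GC box stood at -170 to -165. Of all 32851 windows of that length in the RefSeq table, 18.8% held the half-site, 6.37% the E-box and 33.8% the GC box. Among the other enzymes, the window of Ptges3 also held the half-site (bases 12 to 16) and that of Ptges2 an E-box (-77 to -72). Both had KO and WT levels that overlapped. The Ptgs1 window held none of the 7 motifs. The Ptgr1 window held a TATA match 31 to 27 bases before the start, 2 GC boxes just upstream of it and a CCAAT match, which 21.5%, 33.8% and 33.5% of all windows held. These matches are letters in a window and say nothing of which factor acts there. Positions rest on the annotated RefSeq start, whose use in these cells was not measured, and sequence beyond the windows was not searched. RefSeq entries were found for 7 of the 8 genes, Ptgis being the exception.

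Across the pathway, footprints of Ptgs2 and Ptgis were higher and those of Ptgr1 lower in KO libraries, and the other 4 measured enzymes had groups that overlapped. Ptgs2 was 2.71-fold higher, Ptgis 1.73-fold higher and Ptgr1 2.37-fold lower by the fitted fold changes. Because the genes were selected on these same KO and WT levels, their fold changes and standard errors (SE) are given as a description. Calls of these genes by a fit over all genes are listed as a description too and add no support. For 3 of the 7 enzymes that passed the filter on low counts the KO and WT libraries did not overlap in CPM, which held for 14.9% of all 8200 tested genes (6.94% with KO higher and 7.93% with KO lower). None of the 7 was among the 33 genes (15 higher, 18 lower) called by edgeR's quasi-likelihood test at an adjusted p under 0.05, or 0.402% of those tested (0.183% higher and 0.22% lower). With library totals in place of trimmed-mean (TMM) factors the count was 43, of which 27 were higher and 16 lower, and the median log2 fold change over all tested genes was 0.093 in place of -0.016. DESeq2, which called 2.85% of tested genes, included Ptgs2, Ptgis and Ptgr1. Log2 fold changes were positive for 4 and negative for 3 of the 7, with a median of 0.31, against -0.016 and 49.0% positive over all tested genes.

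**Figure D1:**
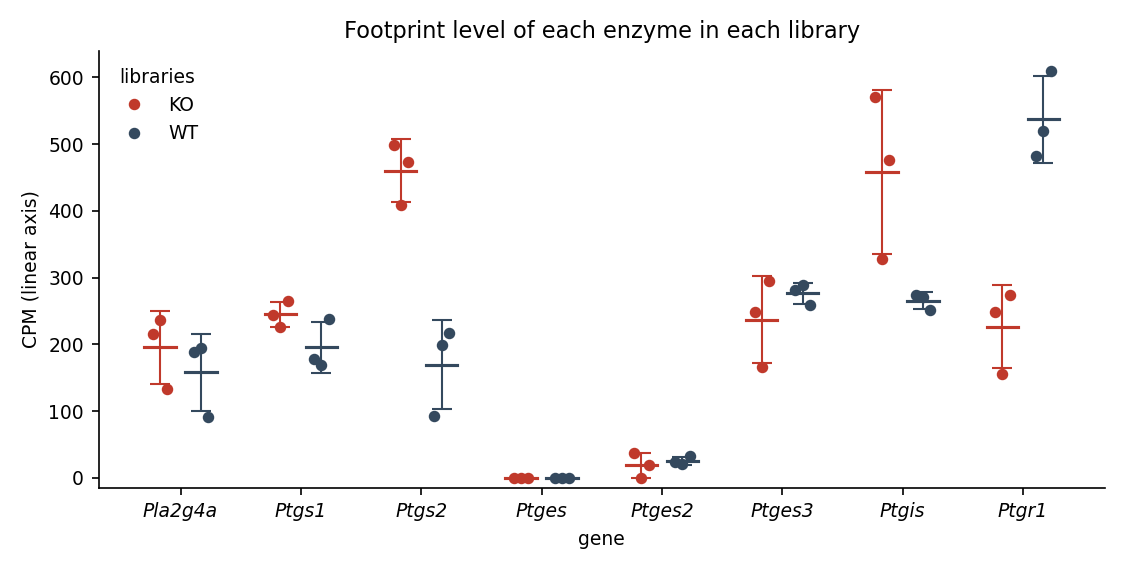
Level of each of the 8 enzymes in CPM (linear vertical axis), in pathway order, with libraries as points, KO left of WT, the mean as a bar and the SD as whiskers (n = 3 each). All KO points of Ptgs2 and Ptgis lie above all WT points, all KO points of Ptgr1 lie below, and Ptges is at 0 throughout.

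Release of arachidonic acid was represented by Pla2g4a, the calcium-dependent cytosolic phospholipase A2 (ENSMUSG00000056220, minus strand, chr1:149829618-149961290 in GRCm38). Its counts were 554, 551 and 431 in KO libraries and 309, 389 and 158 in WT libraries, which is 216, 236 and 134 CPM in KO against 188, 194 and 91.3 CPM in WT. The lowest value of each group was replicate 3, and the groups overlapped. Means were 195 ± 54.2 CPM in KO and 158 ± 57.7 CPM in WT (SD, n = 3 each), with a log2 fold change of 0.31 (SE 0.37). That value was 0.028 without WT replicate 3 and 0.15 without KO replicate 2.

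Ptgs1, the cyclooxygenase usually present at a steady level, had groups that overlapped (ENSMUSG00000047250, plus strand, chr2:36230426-36252272). It had counts of 626, 527 and 852 in KO libraries and 294, 338 and 412 in WT libraries. Levels were 244, 226 and 264 CPM in KO and 179, 169 and 238 CPM in WT. The highest WT library lay inside the KO range, and the log2 fold change was 0.33 (SE 0.28). Means were 245 ± 19.3 CPM in KO and 195 ± 37.5 CPM in WT (SD, n = 3 each).

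Ptgs2, the inducible cyclooxygenase, had the largest positive fold change of the enzymes (ENSMUSG00000032487, plus strand, chr1:150100031-150108227). Its counts were 1279, 953 and 1526 in KO libraries and 153, 399 and 374 in WT libraries. On the CPM scale that is 499, 408 and 473 in KO against 93.0, 199 and 216 in WT. The lowest KO library was above the highest WT library, and WT replicate 1 stood lowest of all. Means were 460.1 ± 46.9 CPM in KO and 169.5 ± 66.8 CPM in WT (SD, n = 3 each), and the log2 fold change was 1.44 (SE 0.31). It was 1.15 without WT replicate 1 and 1.65 without WT replicate 3, the lowest and highest values over 15 other settings. Of all tested genes, 14.7% had a larger absolute log2 fold change, whatever their level or SE. Ptgs2 averaged 315 CPM over all libraries, and 21.2% of tested genes had at least 100 CPM.

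Ptgs1 and Ptgs2 have nearly the same coding length (602 and 604 codons without the stop), so their counts in 1 library can be set against each other without scaling between libraries. Of the cyclooxygenase footprints, Ptgs2 gave 67.1% (95% Wilson interval 65.0 to 69.2), 64.4% (61.9 to 66.8) and 64.2% (62.2 to 66.1) in KO libraries. In WT libraries it gave 34.2% (30.0 to 38.7), 54.1% (50.5 to 57.7) and 47.6% (44.1 to 51.1). Every KO share thus exceeded every WT share, and the KO shares lay closer together than the WT shares. Ptgs2 had already been seen higher in KO libraries and Ptgs1 differed less, so this separation restates that difference and adds no support. Per coding length the ratio of Ptgs2 to Ptgs1 was 1.87 ± 0.14 in KO and 0.87 ± 0.33 in WT (SD, n = 3 each). The intervals cover counting error only, and reads amplified by PCR are not independent molecules.

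**Figure D2:**
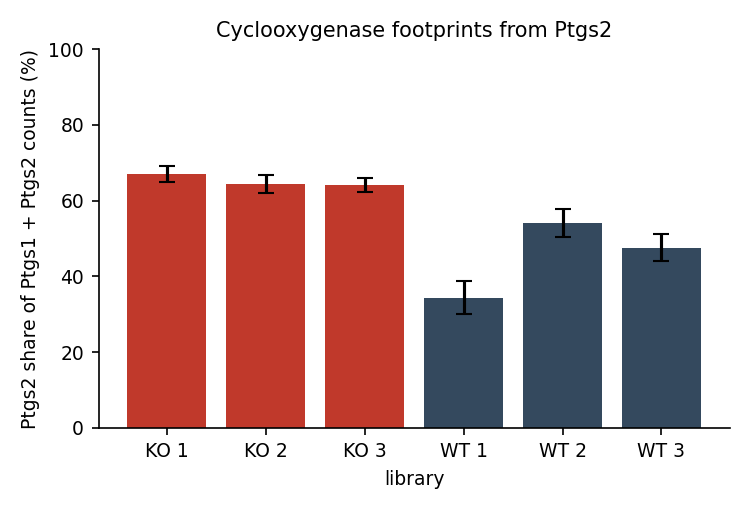
Share of the summed Ptgs1 and Ptgs2 counts that came from Ptgs2, in percent, for each library (KO in red, WT in dark blue), with 95% Wilson intervals of the counts as whiskers. The KO libraries lie at 64.2% to 67.1% and the WT libraries at 34.2% to 54.1%.

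Among the synthases of prostaglandin E2, the inducible membrane enzyme Ptges was not detected (ENSMUSG00000050737, minus strand, chr2:30889471-30929863). It had no count in any of the 6 libraries, which allows a level of up to 0.931 to 1.28 CPM in a KO library and 1.5 to 1.82 CPM in a WT library if counts were independent (3 counts per library, counting error only). Counts in these libraries clustered near values well above 1, so the level that 0 counts allows may be higher than this, by an amount that was not determined. None of its annotated exon bases is shared with another gene, and none of its 432 coding windows of 28 bases occurs in a transcript of another gene. Ptges2, a second membrane-associated synthase (ENSMUSG00000026820, plus strand, chr2:32395896-32405772), was low, with counts of 95, 0 and 61 in KO libraries and 40, 40 and 56 in WT libraries. Its KO libraries held both the highest and the lowest level (37.1, 0 and 18.9 CPM, against 24.3, 19.99 and 32.4 CPM in WT). The log2 fold change of -0.45 had an SE of 1.64 and turned to 0.13 without KO replicate 2, the library at 0.

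Ptges3, the cytosolic synthase that is also a co-chaperone of HSP90, was well covered (ENSMUSG00000071072, plus strand, chr10:128058954-128077272). It had counts of 636, 389 and 952 in KO libraries and 463, 577 and 448 in WT libraries, or 248, 167 and 295 CPM in KO against 282, 288 and 259 CPM in WT. KO replicate 2 was lowest and KO replicate 3 highest, so the KO libraries spanned the WT range, and the log2 fold change was -0.22 (SE 0.28). Means were 237 ± 65.2 CPM in KO and 276 ± 15.3 CPM in WT (SD, n = 3 each). All 453 coding windows of 28 bases also occur in the processed pseudogenes Ptges3-ps or Gm11893, so its counts are uncertain. Ptges3-ps had no count and Gm11893 between 4 and 9 in KO libraries and between 3 and 9 in WT libraries.

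Ptgis, the prostacyclin synthase, a cytochrome P450 of the endoplasmic reticulum, had groups that did not overlap (ENSMUSG00000017969, minus strand, chr2:167191805-167240604). Counts were 1464, 764 and 1534 in KO libraries and 450, 543 and 434 in WT libraries. Levels were 571, 327 and 476 CPM in KO and 274, 271 and 251 CPM in WT. KO replicate 2 came closest to the WT libraries, which lay close together. Means were 458 ± 123 CPM in KO and 265 ± 12.5 CPM in WT (SD, n = 3 each), with a log2 fold change of 0.79 (SE 0.25) that was 0.61 without KO replicate 1 and 0.99 without KO replicate 2. Its annotation shares 6.08% of exon bases with an antisense transcript, 1110018N20Rik, as Ptgs1 shares 3.81% with Gm43621 on the other strand, and no source used here states whether counting used strand.

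Ptgr1, prostaglandin reductase 1, acts at the other end of the pathway and lay lower in KO libraries (ENSMUSG00000028378, minus strand, chr4:58965439-58987119). It reduces the oxidised forms of prostaglandins during their breakdown and also acts on leukotriene B4 and on reactive aldehydes. Its counts were 638, 365 and 884 in KO libraries and 794, 1039 and 1054 in WT libraries, which is 249, 156 and 274 CPM in KO against 483, 519 and 609 CPM in WT. The highest KO library was well below the lowest WT library. Means were 226 ± 62.1 CPM in KO and 537 ± 65.2 CPM in WT (SD, n = 3 each). The log2 fold change was -1.24 (SE 0.26), with -1.41 without KO replicate 3 and -1.03 without KO replicate 2 as the extremes over 15 other settings.

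**Figure D3:**
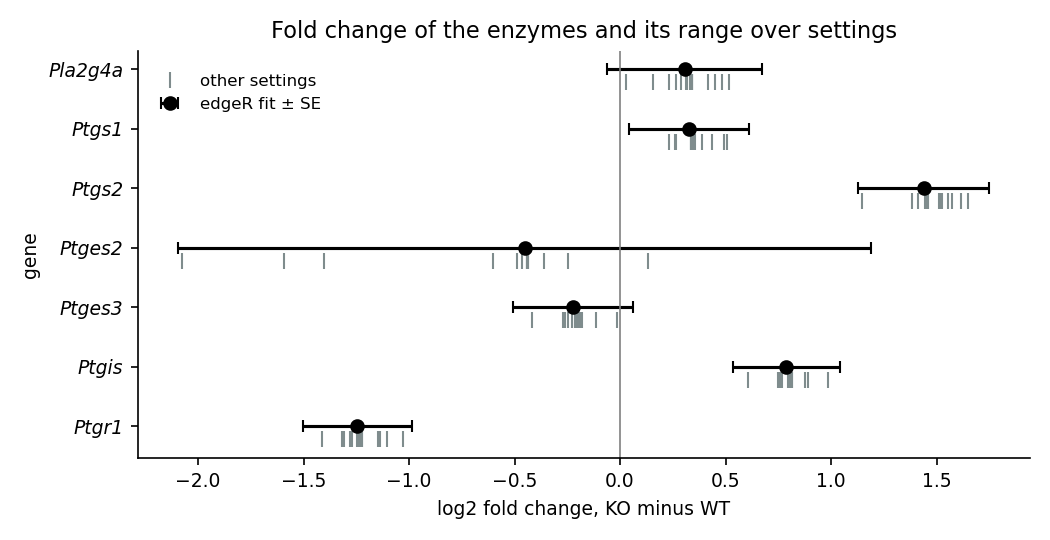
Log2 fold change, KO minus WT, of the 7 tested enzymes, with the edgeR fit and 1 SE as black points and the values under other settings as grey ticks. Ptgs2 (1.44), Ptgis (0.79) and Ptgr1 (-1.24) keep their sign at every tick, and Ptges2 (-0.45) crosses 0.

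Set against each other inside a library, Ptgs2 and Ptgis stood higher relative to Ptgr1 in KO than in WT. Per coding length, the ratio of Ptgs2 to Ptgr1 was 1.09, 1.42 and 0.94 in KO libraries and 0.105, 0.209 and 0.193 in WT libraries. The ratio of Ptgis to Ptgr1 was 1.48, 1.35 and 1.12 in KO libraries and 0.366, 0.338 and 0.266 in WT libraries. Ptgis was thus above Ptgr1 in every KO library and below it in every WT library, whereas Ptgs2 was above Ptgr1 in KO replicates 1 and 2 alone. For both ratios the KO and WT libraries did not overlap. Both set an enzyme seen higher in KO libraries over the enzyme seen lower, so this separation followed from the choice of genes and adds no support. The ratio of Ptgis to Ptgs1 overlapped between the groups, with 2.77, 1.71 and 2.13 in KO libraries and 1.81, 1.90 and 1.25 in WT libraries.

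Levels of different enzymes were compared as CPM per kilobase of coding sequence. In KO libraries Ptges3 stood first (493 ± 136), followed by Ptgis (299.97 ± 80.5), Ptgs2 (254 ± 25.9), Ptgr1 (229 ± 62.9), Ptgs1 (136 ± 10.7), Pla2g4a (87.0 ± 24.2) and Ptges2 (16.2 ± 16.1; SD, n = 3). The first 4 overlapped from each one to the next, whereas Ptgr1 and Ptgs1, Ptgs1 and Pla2g4a, and Pla2g4a and Ptges2 did not overlap. In WT libraries the order was Ptges3 (576 ± 31.9), Ptgr1 (544 ± 66.0), Ptgis (174 ± 8.18), Ptgs1 (108 ± 20.8), Ptgs2 (93.6 ± 36.9), Pla2g4a (70.4 ± 25.7) and Ptges2 (22.2 ± 5.46). There Ptges3 overlapped with Ptgr1, Ptgs1 with Ptgs2 and Ptgs2 with Pla2g4a, while the other neighbours were apart. Ptgs2 thus stood above Ptgs1 without overlap in KO libraries and overlapped with it in WT libraries, and every WT library had more Ptgr1 than Ptgis while every KO library had less.

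A second scale was used because low counts were not evenly spread. Among counts of 8 to 150 the most frequent lay near 42, 46 and 60 in KO libraries and near 15, 21 and 39 in WT libraries, and a count divided by that modal value is called molecule equivalents. These values are not scaled for depth: libraries summed to 60506, 48572 and 52103 equivalents in KO and 112498, 102320 and 46442 in WT, so they show how many units stand behind a level and not a difference between groups. Ptgs2 had 30.5, 20.7 and 25.4 in KO libraries and 10.2, 19.0 and 9.59 in WT libraries. Ptgis had between 16.6 and 34.9 in KO libraries and between 11.1 and 30.0 in WT libraries, and Ptgr1 between 7.93 and 15.2 in KO libraries and between 27.0 and 52.9 in WT libraries. Fitted by edgeR with depth scaling, rounded equivalents gave log2 fold changes of 1.62 (SE 0.30) for Ptgs2, 0.88 (SE 0.27) for Ptgis and -1.10 (SE 0.27) for Ptgr1. Ptges2 was under 3 throughout, and a difference of that gene was not detectable at this depth.

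By position, Ptgs2 and Pla2g4a are neighbours 138741 bases apart on chromosome 1. Their log2 fold changes were 1.44 and 0.31, and the 5 tested genes within 1 megabase of Ptgs2, Pla2g4a among them, had a median of -0.0091 with 2 positive and 3 negative. Ptgr1 lies in a stretch of chromosome 4 whose tested genes all had negative fold changes. Within 1 megabase of its midpoint 5 other genes were tested, with a median log2 fold change of -1.34. For 4 of them every KO library lay below every WT library, which held for 7.93% of all tested genes. The 4 were Ecpas, a proteasome adaptor (log2 fold change -0.99, SE 0.33), the chaperone cofactor Dnajc25 (-1.34, SE 0.58), Ugcg, which makes glucosylceramide (-3.76, SE 1.71), and the splicing regulator Ptbp3 (-1.35, SE 0.51). The fifth, Hsdl2, was low and overlapped (-0.24, SE 2.16). The adjusted p of edgeR's test over these 5 ranged from 0.44 for Ecpas to 1.0 for Hsdl2. The copy number of this stretch was not measured, so its part in the Ptgr1 difference was not tested. Around Ptgis 5 of 12 tested neighbours were positive, and around Ptgs1 4 of 7.

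**Figure D4:**
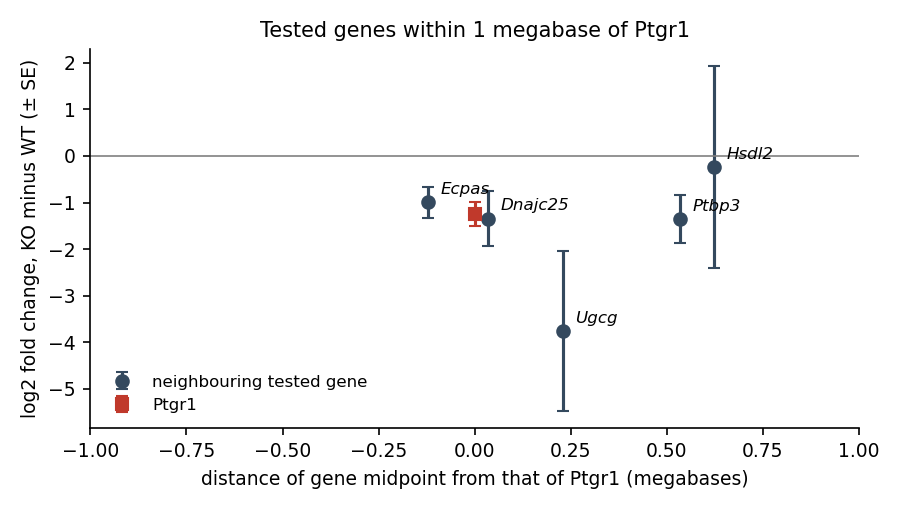
Log2 fold change, KO minus WT, with 1 SE, of Ptgr1 (red square, -1.24) and of the 5 other tested genes within 1 megabase (blue points), against the distance between gene midpoints in megabases. All 6 lie below 0, with a wide error for Ugcg (-3.76) and Hsdl2 (-0.24).

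The coding sequences of the 8 enzymes had no composition in common. Their coding GC content ran from 38.8% in Ptges3 to 61.4% in Ptges2, around the median of 52.1% over tested genes, with 48.2% in Ptgs2, 56.5% in Ptgis and 50.3% in Ptgr1. Over the 6 libraries, which share the group difference and differ in depth, the log2 CPM of Ptgs2 correlated at r = 0.78 with Ptgs1 and 0.78 with Ptgis and at -0.73 with Ptgr1. Among 5764 other protein-coding genes of at least 20 CPM, those most like Ptgs2 over the 6 libraries were Rusc2 (r = 0.994), the cell cycle inhibitor Cdkn1a (0.987) and Tmem35a (0.981). Rusc2 had 122, 116 and 114 CPM in KO libraries and 21.9, 54.5 and 51.5 CPM in WT libraries, with WT replicate 1 lowest as for Ptgs2. Those most like Ptgr1 were Virma, a subunit of the RNA methyltransferase complex (0.992), Adck5 (0.989) and the adhesion molecule Bcam (0.981). With so many genes and 6 libraries, correlations this high are a description only.

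The rest of the pathway was thinly represented. Of 65 further genes of arachidonate and prostanoid metabolism in 6 lists, 33 had no count in any library and 20 could be tested. Of the 20, 8 had positive and 12 negative log2 fold changes (median -0.32, against -0.016 over all tested genes). None was called higher and 1, Cyp2j6, was called lower, where 0.402% of all tested genes were called. A further 2, Acsl4 and Fads2, had an unadjusted p under 0.05 in the edgeR test without passing the adjustment, which makes 3 of 20 at that threshold where 6.49% of all tested genes (532) were under it.

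Downstream of synthesis, none of the 9 prostanoid receptors could be tested. No count was recorded for 7 of them, among them the prostacyclin receptor Ptgir and the prostaglandin E2 receptors Ptger1, Ptger2 and Ptger3. Ptger4, another receptor of prostaglandin E2, had 16 counts over the KO libraries and 7 over the WT libraries, and Ptgfr, the receptor of prostaglandin F, 0 over KO and 40 over WT, in WT replicates 1 and 2 (20 each). These are below or near the modal counts of their libraries. Among 6 other terminal synthases only the aldo-keto reductase Akr1b3, which can make prostaglandin F2α, was tested, at 54.1 ± 16.5 CPM in KO and 80.3 ± 59.0 CPM in WT (log2 fold change -0.57, SE 0.60; edgeR adjusted p = 1.0). The thromboxane synthase Tbxas1 and the haematopoietic prostaglandin D synthase Hpgds had no count.

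Of 5 genes of transport and breakdown, 3 were tested, and edgeR called none of them, nor did any have an unadjusted p under 0.05. Hpgd, the dehydrogenase that starts the inactivation of prostaglandins, had 1 count over the KO libraries and 0 over the WT libraries. Ptgr2, a relative of Ptgr1, had counts of 37, 106 and 2 in KO libraries and 69, 94 and 98 in WT libraries (log2 fold change -1.27, SE 1.15; edgeR adjusted p = 1.0), so its KO libraries scattered widely. Zadh2, another prostaglandin reductase, had 68.3 ± 61.4 CPM in KO and 23.4 ± 6.28 CPM in WT and KO replicate 2 was far above the rest. Its log2 fold change was 1.54 (SE 0.78), and edgeR's adjusted p was 0.86. The exporter Abcc4 had a log2 fold change of -0.081 (SE 2.36).

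Of the phospholipases A2 other than Pla2g4a, 15 of 20 had no count and the 3 tested had SEs of 2.42 to 2.70, so none could be measured with any precision. Pla2g12a had counts of 56, 43 and 62 in KO libraries and 19, 0 and 0 in WT libraries. Pla2g15 had 0, 4 and 2 in KO libraries and 17, 40 and 28 in WT libraries. Neither overlapped in CPM, as for 14.9% of all tested genes, and they differed in direction, while Pla2g6 overlapped. Pla2g4a was thus the only well-covered phospholipase A2 of those listed. Of the list for uptake and remodelling of arachidonic acid, some genes were measured better. The acyltransferases were not among them: Lpcat2 (log2 fold change 2.25, SE 1.21), Lpcat3 (0.43, SE 0.75) and Mboat7 (0.45, SE 1.08) had groups that overlapped. Acsl4, the ligase that activates arachidonic acid, had 606 ± 52.8 CPM in KO and 903 ± 108 CPM in WT (SD, n = 3 each), without overlap (log2 fold change -0.58, SE 0.19; edgeR adjusted p = 0.43). Fads2, a desaturase of polyunsaturated fatty acid synthesis, had 366 ± 111 CPM in KO and 538 ± 38.6 CPM in WT, also without overlap (log2 fold change -0.56, SE 0.25, edgeR adjusted p = 0.73). Its partner Fads1 had a log2 fold change of 0.12 (SE 0.29). In that list of 10, 4 of 9 tested genes were positive and 5 negative, with a median of -0.20.

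Routes of arachidonic acid other than cyclooxygenases were nearly absent or did not pass the test, except for a cytochrome P450. Of the 15 genes listed, 8 had no count, including the lipoxygenases Alox5, Alox12 and Alox15. Cyp2j6, of a family known for epoxidation of arachidonic acid, had counts of 1, 2 and 0 in KO libraries and 117, 121 and 138 in WT libraries. The gene lies on chromosome 4, as Ptgr1 does (chr4:96516138-96553661, minus strand), but far outside the 1 megabase window around Ptgr1. The neighbours of Cyp2j6 were not examined. Copy number was not measured at Cyp2j6 either, so its part in the Cyp2j6 difference was not tested. The summed normalised count of Cyp2j6 in KO was 0.528% of that in WT (exact 95% interval 0.108 to 1.56, counting error only). That interval takes reads as independent, whereas the modal counts of the WT libraries were near 15, 21 and 39. It is therefore too narrow, by an amount that was not determined. The gene was called lower in edgeR's test (adjusted p = 0.019). That call was lost without KO replicate 1 or without any single WT replicate. The hydrolase Ephx1 was abundant in both groups, with 399 ± 49.0 CPM in KO and 369 ± 46.0 CPM in WT (log2 fold change 0.11, SE 0.23), and Lta4h, which makes leukotriene B4, had a log2 fold change of 0.21 (SE 0.42). Mgst3 had counts of 0, 58 and 151 in KO libraries and 83, 120 and 143 in WT libraries (log2 fold change -1.43, SE 1.12). Its groups did not overlap in CPM, as for 14.9% of all tested genes, and edgeR did not call it.

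**Figure D5:**
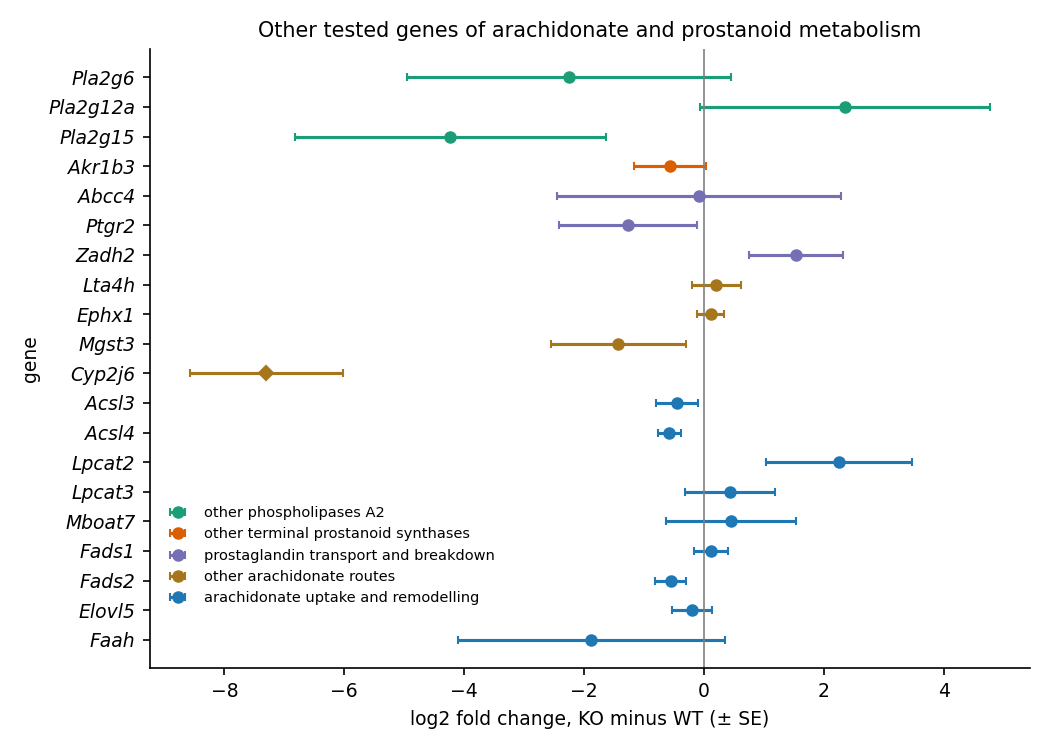
Log2 fold change, KO minus WT, with 1 SE, of the 20 tested genes in 6 lists of arachidonate and prostanoid metabolism, coloured by list (the receptor list had none). The diamond is Cyp2j6, the 1 called gene, whose fitted value rests on 3 counts over the KO libraries and is no measure of size, and the 19 other genes (circles) did not pass the test.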

How the data were processed

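Ribosome footprints of ID8 cells were counted in 6 libraries (3 KO, 3 WT, grouped by title). Per the labels' protocols, the authors kept reads of 25 to 34 nt after adapter trimming with Cutadapt and discarded those that Bowtie placed on rRNA or tRNA. The labels' protocols name HISAT2 for the genome (GRCm38) and Bowtie for transcripts. Per the submitters' processing notes, featureCounts and DESeq2 were also used. No source used here gives the annotation, strand setting, multiple-match rule or duplicate removal. The authors deposited whole-number counts per Ensembl gene, not normalized, for 53465 genes, of which 53274 matched GENCODE M21.

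The main test was edgeR 4.0.16 (R 4.3.3; robust quasi-likelihood, TMM, filterByExpr) on the 8200 genes kept, with Benjamini-Hochberg adjustment over all of them. Alternatives were DESeq2 1.42.0, limma-voom (limma 3.58.1), other scaling, filters and gene sets, molecule equivalents (from the peak of a density of counts from 8 to 150, bandwidth 3), a replicate block, and each library left out once. The fit was tested on simulated counts. The enzymes and lists were chosen with earlier results of these data known. The text names all 8 enzymes, tested genes of the 6 pathway lists, and the 3 genes of at least 20 CPM most correlated with each of the 2 enzymes of largest absolute fold change. Neighbours within 1 megabase, pseudogenes and pathway genes without a test were named after their values were seen. Tables were made in Python 3.11.15 with numpy 2.4.6, pandas 2.3.3 and scipy 1.17.1, and plots with matplotlib 3.10.9.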

Additional observations from a re-analysis of the deposited data

How the results depend on the processing

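The count of genes called over all genes, 33 by edgeR, was 234 with DESeq2, 91 with no count filter and 108 on molecule equivalents (966 genes tested there), and ranged from 6 to 29 when single libraries were left out (6 without WT replicate 2 and 6 without WT replicate 3, and 15, 20 and 18 without KO replicates 1, 2 and 3). With the replicate block it was 38, and 2 enzymes, Ptgs2 and Ptgr1, then passed. Same-numbered KO and WT libraries did not deviate together (r = -0.017 to -0.0026, within -0.020 to 0.028 over all KO and WT pairs). Correlations over so many genes of low count can miss a shared culture or preparation, so this does not settle whether the numbers pair libraries. The count of other pathway genes called, 1 by edgeR, was 2 with DESeq2 (Cyp2j6 and Acsl4), 0 with limma-voom, 0 on molecule equivalents, and 0 to 1 without single libraries; the cause was not tested. Of the 7 tested enzymes 0 were called by edgeR, 3 by DESeq2 (2.85% of all genes tested there were called) and 3 on molecule equivalents (11.2%). Calls numbered 2 with limma-voom (0.524%, or 43 genes), 2 with no count filter (0.711%), 2 with the replicate block (0.463%) and 1 with library totals (0.524%). Ptgs2 was called in 6 of 15 other settings, Ptgr1 in 5 and Ptgis in 2, but none in the 6 fits without single libraries. The enzymes were selected on these same KO and WT levels, so their calls add no support. Following the count of called enzymes over these settings was chosen after seeing the data. The fold changes of Ptgs2 (1.15 to 1.65), Ptgis (0.61 to 0.99), Ptgr1 (-1.41 to -1.03), Ptgs1 (0.23 to 0.51), Pla2g4a (0.028 to 0.51) and Ptges3 (-0.42 to -0.014) kept their sign in all 15 settings. Ptges2 ranged from -2.08 with limma-voom to 0.13 without KO replicate 2 and had no value on molecule equivalents, where the filter removed it. Low counts limit Ptges2, the receptors and most other phospholipases.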
